A study of Homo sapiens with 24 samples.

Results

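FOS, FOSB, FOSL1, FOSL2, JUN, JUNB, JUND, EGR1, IER2 and MYC were followed in TYUC-1 cells before and after induction of a p63 isoform. These 10 genes were chosen by name, as the FOS and JUN families of AP-1 with EGR1, IER2 and MYC, and make up 10 of the 28278 genes in the count table. All 10 passed the filter on low counts, as did 15642 genes in all. TYUC-1 is a human cell line from a neuroendocrine carcinoma of the esophagus, grown in suspension in medium with 10% serum. One engineered line (genotype i-TAp63) expressed TAp63 and the other (i-DNp63) expressed DNp63 under doxycycline at 1 µg/ml. The TP63 gene encodes a squamous transcription factor and makes both isoforms from separate promoters. DNp63 lacks the N-terminal transactivation domain of TAp63. RNA was sequenced in 24 libraries, 3 for each line after 0, 1, 3 and 6 days of doxycycline, which gives 8 groups. Day 0 cells received 6 days of DMSO, and the other cells received 5, 3 or 0 days of DMSO around 1, 3 or 6 days of doxycycline. A treatment label on every sample also names EPZ-6438, an EZH2 inhibitor, for as many days as the doxycycline. If it was used, the inhibitor, doxycycline and p63 cannot be told apart in a comparison of days. Doxycycline-treated cells lacking a p63 construct were not analysed here. The labels do not say whether each line is 1 clone. The replicates are described as biological, with no word on separate cultures. The p-values therefore measure only the library-to-library spread, which may be technical.

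FOS and JUN proteins bind DNA as dimers, known together as AP-1, at sites near growth, stress and differentiation genes. Most of these genes, with EGR1 and IER2, are immediate early genes: serum and growth factors switch them on through ERK and the serum response factor within minutes, and their messenger RNAs decay fast. MYC is also induced by growth signals, pairs with MAX and drives ribosome production and metabolism. In stratified epithelia AP-1 factors act beside p63 on keratinocyte genes.

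Totals ran from 1530847 to 22019974 counts per library. Levels are given as CPM, counts scaled to a common library total. Replicate 3 of DNp63 day 1 had the lowest total, the next lowest being 6375963, and it stood apart from the other 23 libraries. The summed level of 8 erythroid markers was 2936 CPM there against 1.33 to 55.6 elsewhere. VIM, a mesenchymal marker, was at 835 CPM there against at most 21.6. TP63 itself averaged 2.93 CPM at day 0 of the TAp63 line and 655 at day 6, and 4.35 and 926 CPM in the DNp63 line. In the library that stood apart TP63 was at 69.2 CPM. Of the neuroendocrine markers, ENO2 was well above 0 in the other 23 libraries, and CHGA and INSM1 were at or under 1.11 CPM. POU2F3, a tuft cell factor, was at 123 CPM or more. Values with and without the library that stood apart are given below wherever it changes a call.

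EGR1 and FOS are the members whose levels differed most between lines and days, and their promoters are shown because both genes are classic targets of the serum response factor. The sequences are the 250 bases before the transcription start from RefSeq (GRCh38.p14, plus strand). They lie at chr5:138465229-138465478 for EGR1 and chr14:75278578-75278827 for FOS, with any serum response element core (CArG box) in capitals.
EGR1: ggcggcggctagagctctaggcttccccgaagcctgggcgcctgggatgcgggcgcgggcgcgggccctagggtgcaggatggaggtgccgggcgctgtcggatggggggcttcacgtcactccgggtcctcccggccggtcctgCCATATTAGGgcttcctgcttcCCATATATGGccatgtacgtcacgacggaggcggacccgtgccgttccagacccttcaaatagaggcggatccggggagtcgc
FOS: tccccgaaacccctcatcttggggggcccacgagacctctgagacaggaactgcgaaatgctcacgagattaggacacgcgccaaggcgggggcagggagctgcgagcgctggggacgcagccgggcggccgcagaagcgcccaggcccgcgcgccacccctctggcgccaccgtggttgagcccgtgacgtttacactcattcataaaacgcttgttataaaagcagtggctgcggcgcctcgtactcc
EGR1 held 2 CArG boxes in this window, at -105 to -96 and -83 to -74 from the start, and the other 7 members with a sequence in the table held none there. Bases farther upstream were not searched, so a member without a CArG box here, FOS included, may have one outside the window. A CArG box was found in 1.16% of the 35116 promoters of the table, on either strand. Of the other motifs searched on both strands, TGACGTCA (1.65% of promoters) was found only in JUND, at -200 to -193. TGAGTCA, whose reverse is TGACTCA (4.2%), CACGTG (6.34%) and the p53-family half-site (5.57%) were found in none of the 8 members. The CArG box and the half-site were searched by their usual consensus, with no mismatch.

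EGR1, a zinc finger transcription factor made within minutes of growth factor signals, was the member with the largest changes after induction, and it was higher after 3 days in both lines. Its gene lies at chr5:138465479-138469303 (hg38, plus strand) and overlaps no other gene of the table. In the TAp63 line EGR1 was at 21.4, 29.6 and 30.7 CPM in replicates 1 to 3 of day 0 and at 21.9, 64.7 and 40.7 CPM at day 1. It was at 102, 66.6 and 41.0 CPM at day 3 and at 42.4, 40.3 and 28.8 CPM at day 6. All 3 libraries of day 3 lay above the day 0 libraries, while those of days 1 and 6 overlapped them. In the DNp63 line EGR1 was at 11.6, 11.1 and 9.12 CPM at day 0 and at 15.6, 17.8 and 49.2 CPM at day 1. It was at 27.2, 23.4 and 22.1 CPM at day 3 and at 27.9, 21.4 and 24.96 CPM at day 6. Here every library of days 1, 3 and 6 lay above all 3 of day 0. The value of 49.2 CPM belongs to the library that stood apart (74 counts, 95% interval 38.6 to 61.8 CPM for counting error). Groups that did not overlap, with the later day higher, were found for 7.1% of all genes at day 3 of the TAp63 line, and for 3.96%, 13.1% and 10% at days 1, 3 and 6 of the DNp63 line.

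Changes were tested with edgeR's quasi-likelihood test and Benjamini-Hochberg adjustment over all genes. With all 24 libraries in the model, the log2 change of EGR1 from day 0 was 1.35 ± 0.37 (SE) at day 3 of the TAp63 line (adjusted p = 0.201). It was 1.18 ± 0.40, 1.19 ± 0.38 and 1.22 ± 0.38 at days 1, 3 and 6 of the DNp63 line (adjusted p = 0.197, 0.127 and 0.131). None of these passed the threshold of 0.05. At the other days of the TAp63 line the change was 0.63 ± 0.37 (day 1) and 0.44 ± 0.37 (day 6). Leaving out the single library that stood apart left the changes at day 3 of the TAp63 line and at days 3 and 6 of the DNp63 line at 1.35, 1.19 and 1.22. Their adjusted p was then 0.0316, 0.0280 and 0.0279, where 0.824%, 4.35% and 3.52% of all genes were called higher. Fitted to just the 2 groups being compared, the DNp63 changes at days 3 and 6 also passed (adjusted p = 0.00300 and 0.00168), among 2.92% and 2.5% of genes called higher. The TAp63 change at day 3 did not pass in that fit (adjusted p = 0.130). At day 1 of the DNp63 line the change without it was 0.66, against 1.18 with it.

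Same-numbered libraries deviated together in every group other than DNp63 day 1. A model with the replicate number as a block and without that 1 library, called the paired model below, was therefore set beside the first. In the paired model EGR1 rose 2.44-fold at day 3 of the TAp63 line (log2 change 1.29 ± 0.25, adjusted p = 0.00161). It rose 2.29-fold and 2.32-fold at days 3 and 6 of the DNp63 line (1.19 ± 0.28 and 1.21 ± 0.29, adjusted p = 0.00263 and 0.00467). Genes called higher there made up 3.2%, 12.2% and 8.14% of all genes, so EGR1 was 1 of many genes called in the DNp63 line. EGR1 was higher in 3 of 3 same-numbered pairs in each of these comparisons, as were 19.9%, 26.1% and 21.7% of genes. The changes at day 1 (0.59 and 0.57 in the TAp63 and DNp63 lines) and at day 6 of the TAp63 line (0.39) did not pass in the paired model (adjusted p = 0.416, 0.475 and 0.491). The difference between the lines in the change of EGR1 was 0.16 ± 0.53 at day 3 and -0.78 ± 0.53 at day 6, with adjusted p near 1 at both, so an unequal response of the lines was not shown.

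Over the same days, markers of other cell types also moved. The summed level of the 9 squamous markers, TP63 among them, ran from 34.5 to 49.6 CPM at day 0 and from 515 to 686 CPM at day 3 of the TAp63 line. In the DNp63 line it ran from 36.5 to 45.4 and from 913 to 1211 CPM. Most of each rise came from TP63, the induced gene. TP63 averaged 2.93 and 558 CPM at days 0 and 3 of the TAp63 line and 4.35 and 865 CPM in the DNp63 line. KRT13 averaged 10.03 and 27.14 CPM in the TAp63 line and 8.425 and 63.68 CPM in the DNp63 line. TRIM29 averaged 26.7 and 31.06 CPM, then 26.99 and 84.97 CPM. In the TAp63 line KRT5, KRT6A, KRT14, KRT4 and IVL averaged at most 0.73 CPM at both days. KRT5 averaged 7.54 CPM at day 3 of the DNp63 line. SOX2 was at 0 in every library. The 8 tuft cell markers summed to 758 to 797 CPM and 622 to 685 CPM at these 2 days of the TAp63 line and to 725 to 758 and 459 to 530 CPM in the DNp63 line. Their part in the change of EGR1 was not tested, and more EGR1 RNA per cell cannot be told apart from more cells with it.

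**Figure D1:**
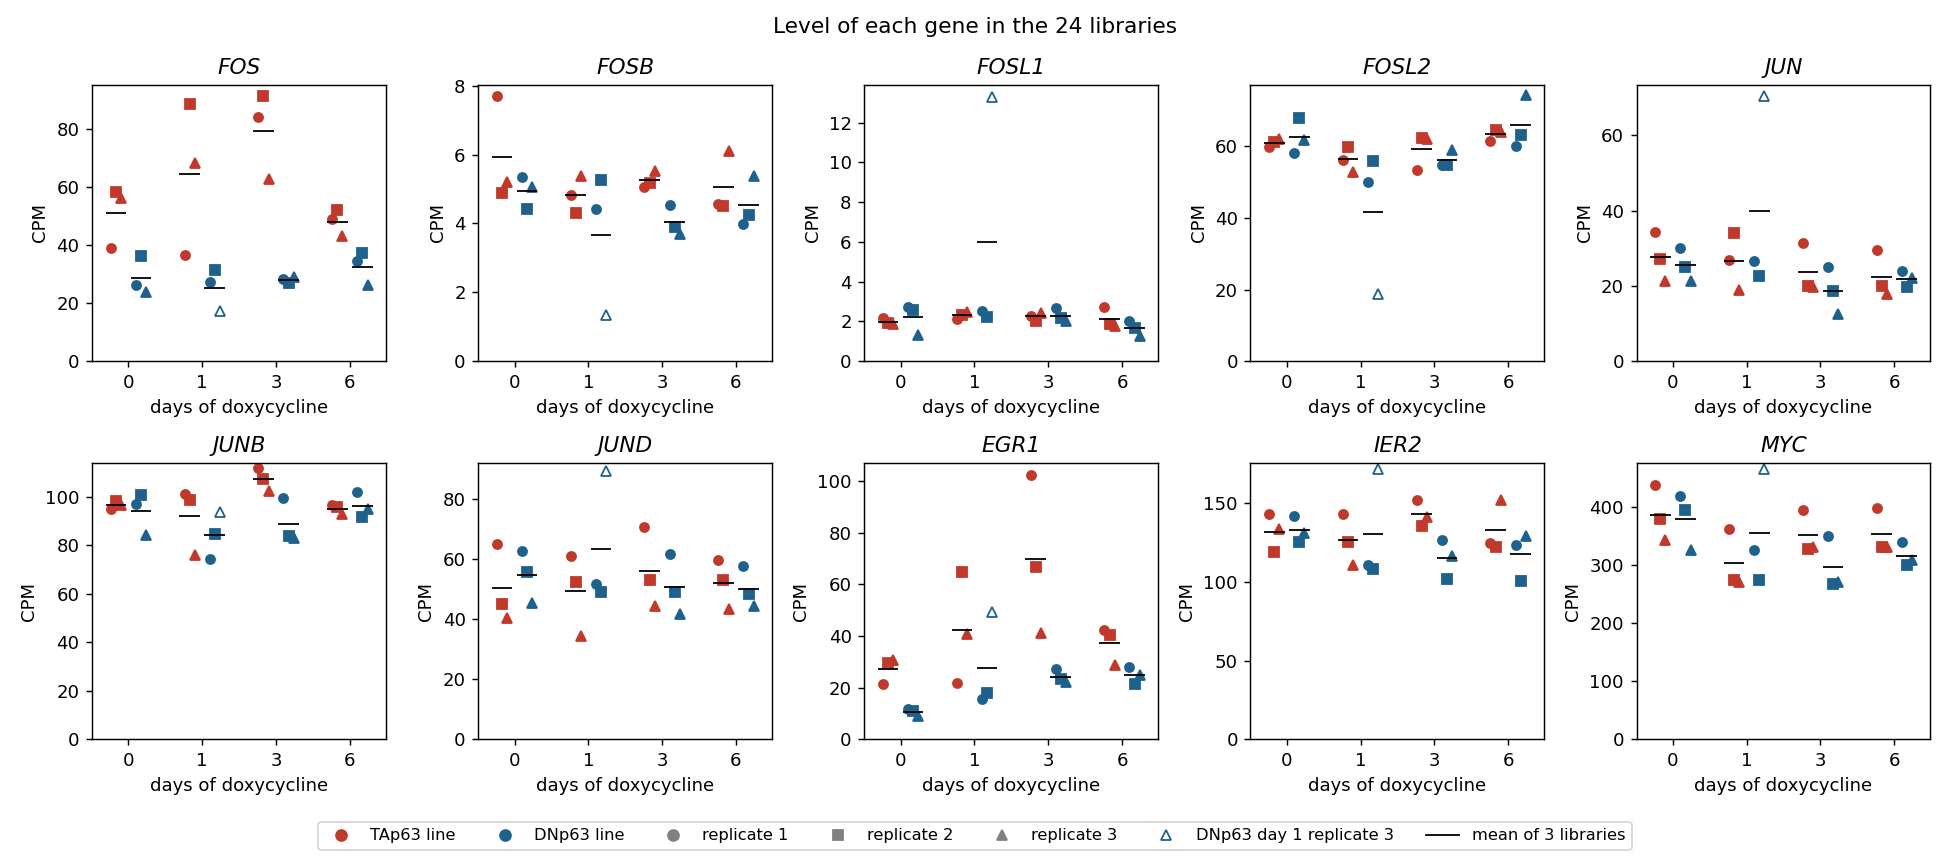
Level of each of the 10 genes in the 24 libraries (vertical axes, CPM, starting at 0) against days of doxycycline (horizontal axes). Red and blue are the TAp63 and DNp63 lines, symbols are replicate numbers, the open triangle is the library that stood apart, and black lines are means of 3 libraries. FOS and EGR1 lie higher in the TAp63 line, and the open triangle lies far from the other 2 DNp63 day 1 libraries for FOSL1, FOSL2, JUN and EGR1.

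FOS, the founding partner of JUN in AP-1, separated the lines more clearly than it separated the days. Its gene lies at chr14:75278828-75282230 (hg38, plus strand), 12173 bases from the nearest other gene of the table, LINC01220. In the TAp63 line FOS was at 38.8, 58.1 and 56.3 CPM at day 0 and at 36.6, 88.5 and 68.2 CPM at day 1. It was at 83.9, 91.4 and 62.5 CPM at day 3 and at 49.0, 52.0 and 43.1 CPM at day 6. Day 3 lay wholly above day 0, as for 7.1% of all genes, and days 1 and 6 overlapped it. In the DNp63 line FOS was at 26.3, 36.1 and 23.7 CPM at day 0 and at 27.1, 31.3 and 17.3 CPM at day 1. It was at 28.4, 26.7 and 28.8 CPM at day 3 and at 34.3, 37.2 and 26.1 CPM at day 6. All 3 later days overlapped day 0. The lowest TAp63 library was above the highest DNp63 library at each of the 4 days, which held for 11 of the 15642 genes (0.0703%).

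At day 3 FOS was 2.84-fold higher in the TAp63 line than in the DNp63 line (log2 difference 1.51 ± 0.26, adjusted p = 0.00579), in a comparison added after the levels had been seen. Genes called higher in the TAp63 line at that day made up 0.0767% of all genes. Without replicate 2 of TAp63 day 3 the adjusted p was 0.0662, and without replicate 2 of DNp63 day 3 it was 0.0523, with differences of 1.39 and 1.48. At day 1 the difference was 1.28 ± 0.26 (adjusted p = 0.124) and reached an adjusted p of 0.0392 with the replicate block alone and 0.00225 in the paired model, where it was 1.16 ± 0.20. Genes called higher in the TAp63 line at day 1 made up 0.0256% with the block alone and 0.0444% in the paired model. Leaving out replicate 1 of TAp63 day 1, or replicate 1 or replicate 2 of DNp63 day 1, also brought it under the threshold (0.0255, 0.0231 and 0.00865), among 0.00628%, 0.0817% and 0.189% of genes called higher. At day 6 the difference was 0.56 ± 0.25 (adjusted p = 0.721, and 0.0568 in the paired model).

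Levels were also compared between the lines before any doxycycline. At day 0 the log2 difference, TAp63 line minus DNp63 line, was 0.84 ± 0.25 for FOS and 1.37 ± 0.38 for EGR1. Neither passed with all libraries (adjusted p = 1 for both, unadjusted p = 0.00348 and 0.00176). In the paired model both passed, FOS 1.81-fold and EGR1 2.68-fold higher in the TAp63 line (adjusted p = 0.0263 and 0.0185), among 0.038% of genes called higher. Both lines had DMSO alone at day 0. For EGR1 the TAp63 libraries lay above the DNp63 libraries at days 0, 3 and 6, and at day 1 only the library that stood apart made them overlap. At day 3 TAp63 libraries lay wholly above for 5.89% of all genes, and the shares at days 0 and 6 are not given here. At day 3 the EGR1 difference was 1.53 ± 0.37 with all libraries (adjusted p = 0.0900) and 1.51 in the paired model (0.000198), among 2.27% of genes called higher. It was 1.53 without the library that stood apart (0.00978) and without replicate 1 of TAp63 day 1 (0.0468), among 0.361% and 0.1% of genes called higher. The corresponding paired values were 1.44 at day 1 (0.0176) and 0.60 at day 6 (0.193).

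The increase of FOS in the TAp63 line from day 0 to day 3 was 0.63 ± 0.25 (adjusted p = 0.808) with all libraries. In the paired model it was 0.62 ± 0.17 and passed (adjusted p = 0.0303), among 3.2% of genes called higher. In the DNp63 line the change at day 3 was -0.038 ± 0.25 with all libraries and -0.019 ± 0.18 in the paired model. The difference between these changes was 0.67 ± 0.36 (adjusted p = 1.000) and 0.64 ± 0.25 in the paired model (adjusted p = 0.247), so an unequal change of FOS in the lines was not shown. In the order of group means EGR1 ran from 69.9 ± 30.8 CPM (SD, n = 3) at day 3 of the TAp63 line through 42.4 ± 21.5, 37.2 ± 7.32 and 27.2 ± 5.08 CPM at its days 1, 6 and 0. Below these came 24.8 ± 3.24, 24.2 ± 2.67 and 10.6 ± 1.32 CPM at days 6, 3 and 0 of the DNp63 line. Only the last step, from day 3 to day 0 of the DNp63 line, was one between groups whose libraries did not overlap. DNp63 day 1, at 27.5 ± 18.8 CPM, is left out of that order because 1 library sets its mean.

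FOS and EGR1 were also each other's closest gene. Over the 23 libraries other than the one that stood apart, Pearson's r of their log2 CPM was 0.85, the highest for either gene among 11350 genes with a mean of at least 5 CPM. Within the 12 TAp63 libraries r was 0.89 (Spearman's rho 0.83), and 0.85 without the 2 libraries farthest from the median of FOS. Within the 11 DNp63 libraries r was 0.23 (rho 0.16), and 0.61 without the 2 farthest, so the relation in that line rests on which libraries are used. The next closest gene to FOS was LINC01559 (0.77). These libraries share lines, days and replicate numbers, so the values describe likeness in these samples only.

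**Figure D2:**
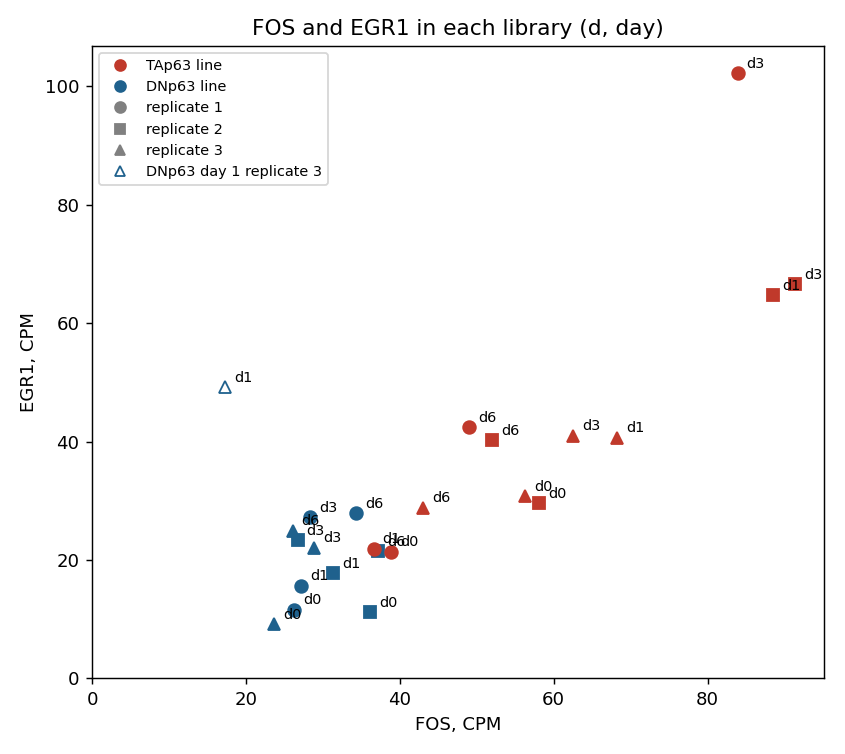
FOS (horizontal axis, CPM) against EGR1 (vertical axis, CPM) in each of the 24 libraries, with the day beside each point, colours for the lines and symbols for replicate numbers. The TAp63 libraries run from 36.6 CPM of FOS with 21.9 CPM of EGR1 to 83.9 with 102 and 91.4 with 66.6 CPM, and the open triangle, replicate 3 of DNp63 day 1, lies off this band.

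MYC, the growth-linked factor that pairs with MAX, had the highest level in CPM of the 10 genes and was somewhat lower after induction in both lines. Its gene lies at chr8:127735434-127742951 (hg38, plus strand), 1466 bases from CASC11. In the TAp63 line MYC was at 439, 379 and 343 CPM in replicates 1 to 3 of day 0 and at 363, 275 and 271 CPM at day 1. It was at 395, 328 and 331 CPM at day 3 and at 398, 330 and 332 CPM at day 6. In the DNp63 line it was at 419, 395 and 326 CPM at day 0 and at 326, 275 and 466 CPM at day 1. It was at 350, 268 and 271 CPM at day 3 and at 340, 300.4 and 308 CPM at day 6. The range of each later day overlapped that of day 0 in both lines. At DNp63 day 1 only the library that stood apart lay within or above the day 0 range, and in each of the other groups only replicate 1 did. Read by replicate number, MYC was lower than at day 0 in 3 of 3 pairs at every day of the TAp63 line and at days 3 and 6 of the DNp63 line. At DNp63 day 1 it was lower in 2 of 3 pairs, and the exception of 466 CPM is the library that stood apart. A fall in all 3 pairs was common over all genes: 16.5%, 19.4% and 19.2% at days 1, 3 and 6 of the TAp63 line, and 28% and 21.6% at days 3 and 6 of the DNp63 line.

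With all 24 libraries no change of MYC passed. It was -0.35 ± 0.17 at day 1 of the TAp63 line (adjusted p = 1.000) and -0.36 ± 0.17 and -0.27 ± 0.17 at days 3 and 6 of the DNp63 line (adjusted p = 0.412 and 0.815). In the paired model, with its smaller standard error, MYC fell to 0.78 of its day 0 level at day 1 of the TAp63 line (log2 change -0.36 ± 0.069, adjusted p = 0.00635). It fell to 0.76 at day 1 of the DNp63 line (-0.40 ± 0.078, adjusted p = 0.00710, from 2 libraries), to 0.78 at its day 3 (-0.37 ± 0.069, adjusted p = 0.000325) and to 0.83 at its day 6 (-0.26 ± 0.069, adjusted p = 0.00929). Genes called lower there made up 0.348%, 0.298%, 11.3% and 5.94% of all genes. Shared deviations of same-numbered libraries were not shown for DNp63 day 1, so its adjustment in the paired model rests mainly on the other groups. At days 3 and 6 of the TAp63 line MYC was at 0.91 of its day 0 level in that model, and neither change passed (adjusted p = 0.288 and 0.372). At day 3 MYC was 1.19-fold higher in the TAp63 line than in the DNp63 line in the paired model (adjusted p = 0.0280), although the libraries overlapped. That model called 2.27% of genes higher in the TAp63 line at day 3. The difference in change at that day did not pass (0.23 ± 0.097, adjusted p = 0.301).

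**Figure D3:**
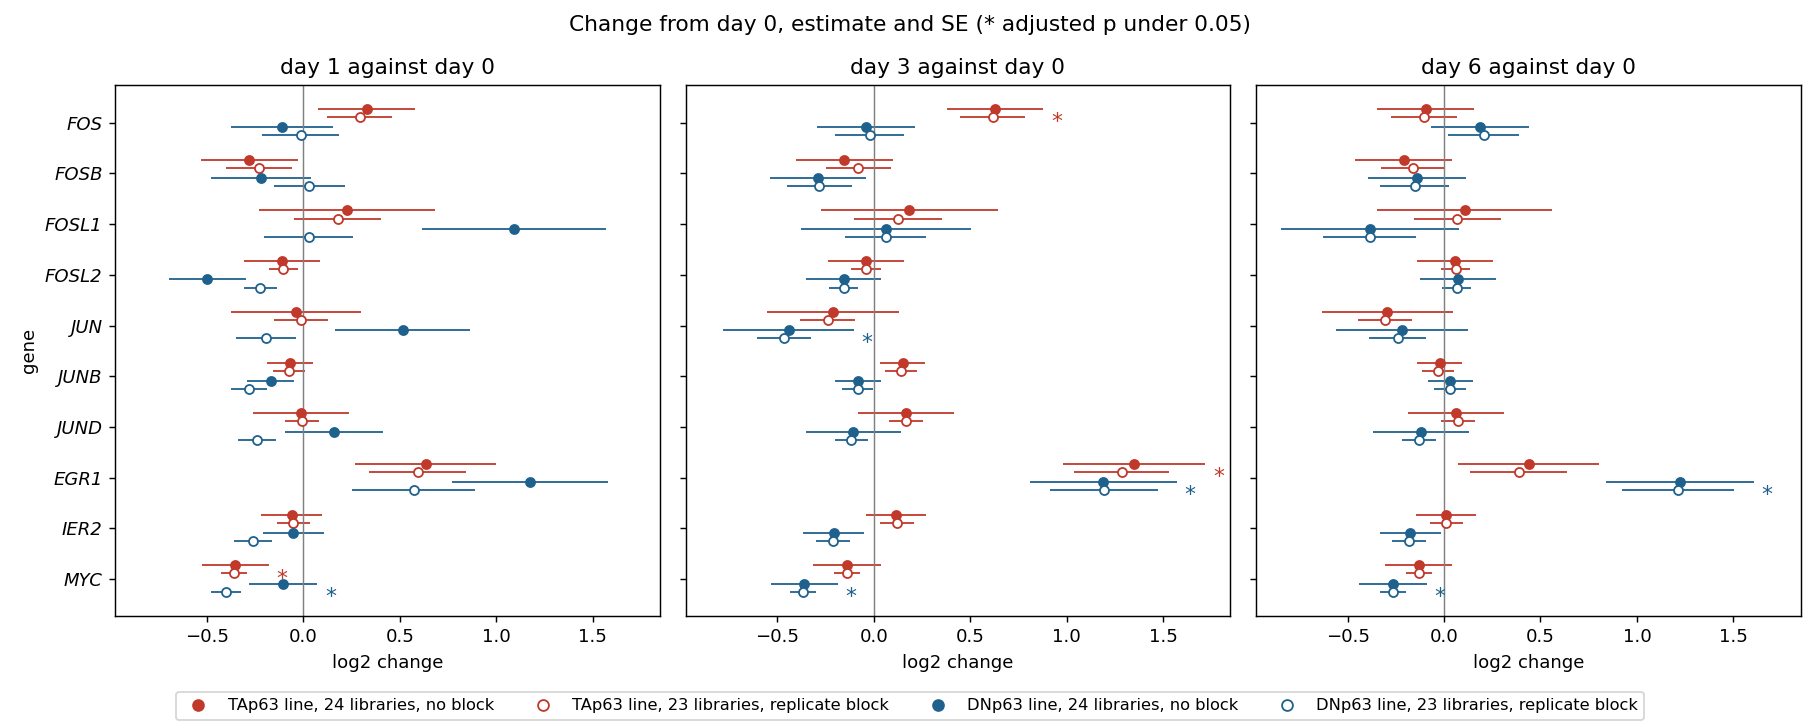
Log2 change from day 0 (horizontal axes) of the 10 genes at days 1, 3 and 6 in the TAp63 (red) and DNp63 (blue) lines. Filled points are the model with 24 libraries and open points the paired model with 23 libraries, bars are 1 SE, and a star of the same colour marks an open point with adjusted p under 0.05. Stars stand at EGR1, FOS, JUN and MYC, none at a filled point, and the 2 models differ most at day 1 of the DNp63 line.

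Of the JUN family, JUN, the main dimer partner of FOS, had a level in the range of 12.5 to 34.4 CPM in the 23 libraries and of 70.5 CPM in the library that stood apart. At day 3 of the DNp63 line JUN was at 24.9, 18.7 and 12.5 CPM against 30.05, 25.1 and 21.2 CPM at day 0. The ranges overlapped, with each replicate lower than its day 0 partner, as for 28% of all genes. The log2 change was -0.44 ± 0.34 with all libraries (adjusted p = 0.716) and -0.46 ± 0.14 in the paired model. There JUN fell to 0.72 of its day 0 level (adjusted p = 0.0168), among 11.3% of genes called lower. JUN was also lower in 3 of 3 pairs at days 3 and 6 of the TAp63 line, as were 19.4% and 19.2% of all genes. Its change there, -0.21 and -0.29 with all libraries, did not pass in either model.

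JUNB, which often restrains JUN, had group means that ran from 84.3 ± 9.75 to 107 ± 4.80 CPM (SD, n = 3). Its 3 libraries of day 3 in the TAp63 line, at 112, 107 and 102 CPM, lay above the 95.1 to 98.2 CPM of day 0 and above the 83.0 to 99.4 CPM of day 3 in the DNp63 line. TAp63 libraries of day 3 lay wholly above those of DNp63 day 3 for 5.89% of all genes, and above those of TAp63 day 0 for 7.1%. The difference between the lines was 0.27 ± 0.12 (adjusted p = 0.913) with all libraries and 0.27 ± 0.082 in the paired model (adjusted p = 0.0497), and that model called 2.27% of genes higher in the TAp63 line at day 3.

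JUND, the JUN member expressed in most resting cells, ran from 34.4 to 70.7 CPM in the 23 libraries and was at 89.1 CPM in the library that stood apart. Replicate 1 was above replicate 2 and replicate 2 above replicate 3 in 7 of the 7 groups other than DNp63 day 1, an order that 2.86% of all genes had. At day 0 of the TAp63 line, for example, JUND was at 65.0, 45.1 and 40.5 CPM. The same order held in 5 of 7 groups for JUN and FOSL1, in 4 for JUNB and EGR1, in 3 for MYC and in none for FOS and FOSL2. JUND was called in no comparison in either model. The genes most like JUND over the 23 libraries were TRAPPC5 (r = 0.97) and OTUB1 (0.96).

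**Figure D4:**
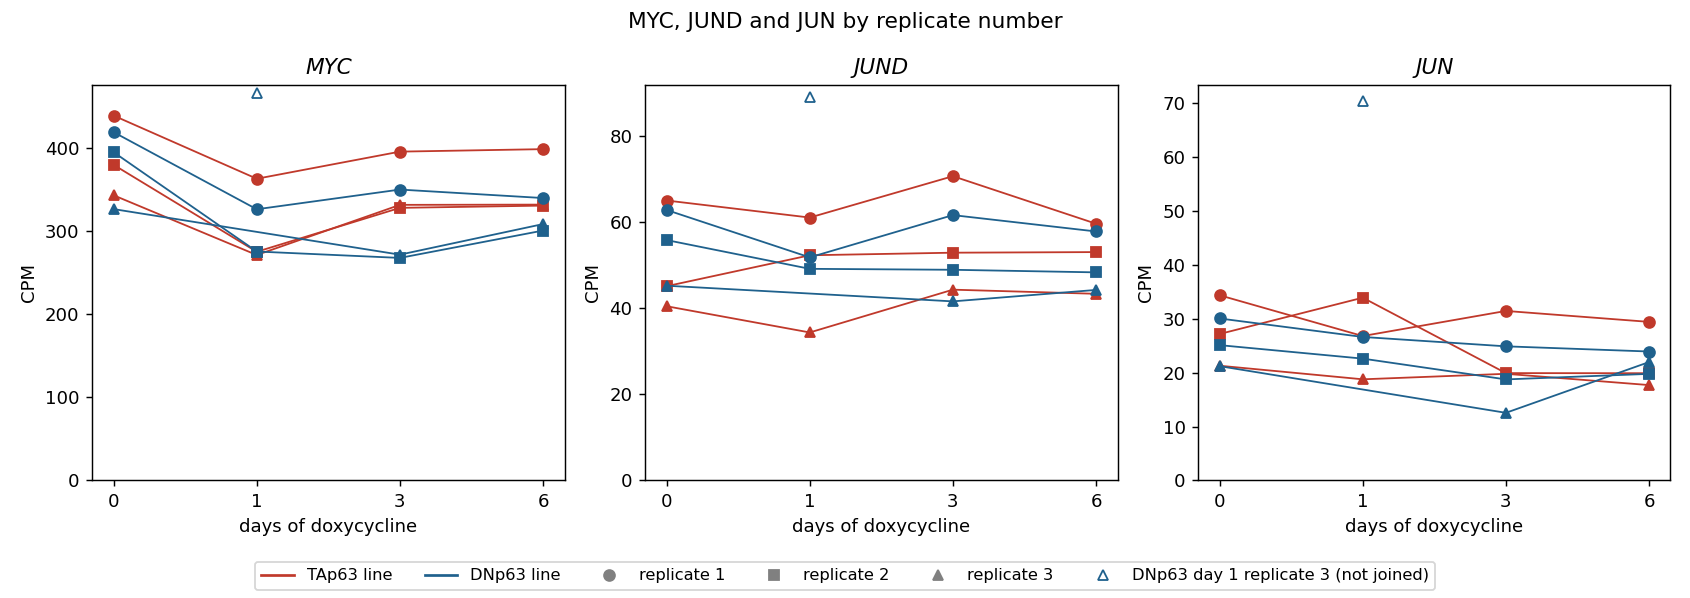
MYC, JUND and JUN (vertical axes, CPM, starting at 0) against days of doxycycline (evenly spaced), with a line for each line of cells and replicate number and the library that stood apart as an open triangle that is not joined. Replicate 1 lies highest in most groups, and each MYC line falls from day 0 to its next point.

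Of the other FOS proteins, FOSL2 (FRA2), which lacks a strong transactivation domain, was at 50.1 to 74.4 CPM in the 23 libraries and at 18.6 CPM in the library that stood apart. Its count covers a span of 24460 bases, the longest of the 10 genes, within which FLJ31356 also lies, so its value is uncertain. The FOSL2 change at day 1 of the DNp63 line was -0.50 ± 0.20 with all libraries (adjusted p = 0.296) and was not called in the paired model. It passed when replicate 2 of DNp63 day 1 was left out (0.0442), among 0.674% of genes called lower. FOSL1 (FRA1), a FOS protein of squamous and mesenchymal cells, was near the floor of detection at 1.26 to 2.72 CPM in the 23 libraries, against 13.3 CPM (20 counts, 95% interval 8.12 to 20.5 CPM) in the library that stood apart. Its log2 change of 1.09 ± 0.48 at day 1 of the DNp63 line (adjusted p = 0.346) was 0.031 in the paired model. FOSB, the brain and immediate early member, was at 3.70 to 7.70 CPM in the 23 libraries and at 1.33 CPM from 2 counts in the other, and it was not called in any comparison in either model.

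IER2, a small immediate early nuclear protein, was at 101 to 152 CPM in the 23 libraries. Its gene lies 35 bases from STX10, and fragments counted without strand near that border could belong to either gene. At day 3 IER2 was at 152, 135 and 141 CPM in the TAp63 line and at 126, 101.5 and 117 CPM in the DNp63 line, ranges that did not overlap. TAp63 libraries lay wholly above at that day for 5.89% of all genes. The IER2 difference was 0.31 ± 0.16 with all libraries (adjusted p = 1.000). It was 1.25-fold in the paired model, where it passed (0.32 ± 0.086, adjusted p = 0.0257), among 2.27% of genes called higher.

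Over the 10 planned comparisons, none of the 10 genes passed in edgeR with all libraries, and 9 of the 100 tests had an unadjusted p under 0.05. DESeq2 called EGR1 at day 3 of the TAp63 line (adjusted p = 0.0464) and at day 1 of the DNp63 line (0.0323), among 0.68% and 2.92% of genes called higher. The second of these calls includes the library that stood apart, at 49.2 CPM of EGR1. Without that library the edgeR change at day 1 of the DNp63 line was 0.66 and was not called. Between the lines DESeq2 also called FOS at day 1 (adjusted p = 0.00114) and EGR1 at day 3 (0.0114), among 0.0642% and 0.225% of genes called higher. Over all genes, the share called in edgeR was 0.121%, 0.435% and 0.441% at days 1, 3 and 6 of the TAp63 line, 0.0959%, 2.2% and 2.03% in the DNp63 line, and 0.0128% between the lines at day 0. The median log2 change of the 10 genes was between -0.13 and 0.13 in the 6 comparisons with day 0, beside medians of all genes that were within 0.014 of 0. No difference in change between the lines was called for any of the 10 genes in any model run, beside 0%, 0.0448% and 0.0831% of all genes in edgeR at days 1, 3 and 6.

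Compared per kilobase of the counted span, which includes introns, JUNB (51.5 CPM per kilobase) and MYC (44.9) were the most abundant of the 10 genes over the 23 libraries, followed by IER2 (28.1), JUND (26.8), FOS (13.5), EGR1 (8.44), JUN (7.31), FOSL2 (2.45), FOSB (0.69) and FOSL1 (0.25). Counted over introns, a long gene such as FOSL2 has a lower value than a count over exons would give. The genes most like the remaining members were FOXI1 for MYC (r = 0.92), POLE for JUN (0.91), CENPB for JUNB (0.85), KCNK5 for IER2 (0.85), FAM53B for FOSL2 (0.84), HHEX for FOSL1 (0.75) and DCAF1 for FOSB (0.71).

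Among the 34 tested immediate early genes other than these 10, 1 was called with all libraries: TRIB1, a pseudokinase, was higher at days 3 and 6 of the DNp63 line (log2 change 0.51 and 0.91, adjusted p = 0.0285 and 9.918e-05). The median change of this list was between -0.20 and 0.056 over the 6 comparisons with day 0. In the paired model 5 rose and 1 fell at day 3 of the TAp63 line, and 4 rose and 8 fell at day 3 of the DNp63 line. Over all genes 3.2% were called higher and 1.37% lower in the first comparison, and 12.2% and 11.3% in the second. Those that rose included GEM (1.01), a small GTPase, in the TAp63 line and EGR2 (1.03), a relative of EGR1, in the DNp63 line, and those that fell in the DNp63 line included the nuclear receptor NR4A3 (-0.62) and KLF10 (-0.57). 

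Among the 17 ERK feedback and output genes, PHLDA1 was called higher at days 3 and 6 of the TAp63 line (1.03 and 0.98, adjusted p = 0.0322 and 0.0475). At day 3 of the DNp63 line the ERK phosphatase DUSP7 was called higher (0.80, adjusted p = 0.0326). DUSP6, the phosphatase that switches off ERK, rose in the paired model at days 1, 3 and 6 of the TAp63 line (0.77, 0.89 and 0.88) and at days 1 and 3 of the DNp63 line (0.78 and 0.44). In that model the ERK-induced factor ETV4 fell at day 3 in both lines (-0.93 and -1.02), as did SPRED2 (-0.28 and -0.27). SPRY1 (-0.49) and EPHA4 (-0.43) also fell at day 3 of the DNp63 line, where PHLDA1 (0.58) and DUSP7 (0.80) rose. LIF fell at day 1 of the TAp63 line (-0.93), where PHLDA1 rose (0.72). Over all genes that model called 3.2% higher and 1.37% lower at day 3 of the TAp63 line. In the DNp63 line it called 12.2% and 11.3% at that day. None of the 19 tested ERK pathway kinases and SRF factors was called with all libraries, SRF itself among them at 44.3 to 50.1 CPM on average over groups. Of the 17 JNK and p38 kinases, MAPK10 (JNK3) was called higher at days 3 and 6 of the DNp63 line (1.35 and 1.17, adjusted p = 0.00611 and 0.0173).

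Of the other AP-1 and dimer partners, ATF3 was not called in any comparison with day 0. Only 8 of the 22 AP-1 target genes of epithelia passed the filter, and none was called with all libraries. CD44, a cell surface receptor, rose in the paired model at days 3 and 6 of both lines (0.40 and 0.39, then 0.68 and 0.60). Of the 29 tested MYC target genes, SLC7A5, an amino acid transporter, was called lower at day 3 of the DNp63 line (-0.47, adjusted p = 0.0439). In the paired model 10 fell and none rose there, SLC7A5, CAD and TERT among them (-0.47, -0.39 and -0.53), when 11.3% of all genes were called lower, and the list's median was -0.21. At day 6, when MYC was also lower, 2 fell and 1 rose, beside 5.94% of all genes called lower and 8.14% higher. MAX was called in no comparison with day 0 in either model, at group means of 94.9 to 112 CPM. Of the 11 tested heat shock genes only HSP90AB1 fell, at day 3 of the DNp63 line in the paired model (-0.38).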

How the data were processed

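The deposited table holds raw counts, not normalized, for 28278 genes in 24 libraries. Per the file header, the authors ran featureCounts 2.0.0 with UCSC refGene transcripts (hg38). Each fragment pair was counted, without strand, over the full span of a transcript with its introns. The submitters' processing notes name HISAT2 2.1.0, featureCounts 1.6.1 and DESeq2. Unspliced RNA is therefore part of each count, and fragments overlapping 2 genes were counted for neither.

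The counts of all 24 libraries were fitted with edgeR 4.0.16 under R 4.3.3, using TMM scaling, glmQLFit and glmQLFTest after filterByExpr. The model had a mean for each of the 8 groups and 16 residual degrees of freedom. It tested 15642 genes, and the threshold was a Benjamini-Hochberg adjusted p under 0.05. CPM is on the library totals of the tested genes times their TMM factors. An SE is the absolute log2 change over the square root of F and is approximate. Each later day was compared with day 0 of its line, the changes were compared between lines, and the lines at day 0. The comparisons of the lines at days 1, 3 and 6 were added after the data had been seen. The genes, lists, rules and tests were chosen with earlier results of these data known. All 10 genes were described. Of each list the genes called with the largest change were named, or the best-known member where none was called, and the other list genes named for the paired model were chosen after their values were seen. Likeness is Pearson's r of log2 CPM with a prior count of 2.

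Pairing of the replicate numbers comes from the data. Deviations from group means correlated at 0.228 to 0.687 in 24 of 24 pairs of same-numbered libraries without DNp63 day 1. Many of these pairs share a library, so they are not independent. In 26 of all 30 pairs the correlation was over 0.1 (lowest -0.286). Alternatives were RLE size factors, no filter, DESeq2 1.42.0, only the libraries compared, the replicate block with and without DNp63 day 1 replicate 3, and leaving out each library. Replicates of each group differed from one another by more than sampling noise. Tested on simulated data, the model recovered 70% of genes changed by 1 on the log2 scale and 98% of those changed by 2 at day 6 of the DNp63 line, over 15482 genes. For the difference in change between the lines at day 6 it recovered 40% and 89%, over 15484 genes. The changed genes were drawn only from genes with levels above that of FOSL1. Simulated libraries varied independently, without the shared deviations of same-numbered libraries. Intervals are exact Poisson at 95% and cover counting error only. Results for a few genes of the lists are not reported here.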

Additional observations from a re-analysis of the deposited data

How the results depend on the processing

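Depth limits the precision of FOSB and FOSL1, at 1.33 to 7.70 and 1.26 to 13.3 CPM. In most comparisons the largest number of genes called among the fits without 1 library came without DNp63 day 1 replicate 3. Calls of the 10 genes kept their direction in the alternatives run, except MYC at DNp63 day 1. Called lower in the paired model, MYC turned sign there, uncalled, on leaving out 1 library. The replicate block alone changed a call of theirs only for FOS between the lines at day 1, while the block without that library changed the calls given above. In edgeR with 24 libraries, the number of genes called was 19 for TAp63 day 1, 68 for TAp63 day 3, 69 for TAp63 day 6, 15 for DNp63 day 1, 344 for DNp63 day 3, 318 for DNp63 day 6, 0 for the line difference in change at day 1, 7 for the line difference in change at day 3, 13 for the line difference in change at day 6, 2 for the lines at day 0. With the replicate block it was 141 for TAp63 day 3, 122 for TAp63 day 6, 29 for DNp63 day 1, 1078 for DNp63 day 3, 714 for DNp63 day 6, 26 for the line difference in change at day 6, 6 for the lines at day 0. With the replicate block and without DNp63 day 1 replicate 3 together it was 140 for TAp63 day 1, 722 for TAp63 day 3, 568 for TAp63 day 6, 134 for DNp63 day 1, 3712 for DNp63 day 3, 2221 for DNp63 day 6, 2 for the line difference in change at day 1, 149 for the line difference in change at day 3, 295 for the line difference in change at day 6, 27 for the lines at day 0. With only the libraries compared it was 8 for TAp63 day 1, 0 for DNp63 day 1, 546 for DNp63 day 3, 494 for DNp63 day 6, 3 for the line difference in change at day 3, 25 for the line difference in change at day 6, 0 for the lines at day 0. By DESeq2 it was 30 for TAp63 day 1, 121 for TAp63 day 3, 497 for DNp63 day 1, 597 for DNp63 day 3, 503 for DNp63 day 6, 1 for the line difference in change at day 1, 16 for the line difference in change at day 3, 35 for the line difference in change at day 6, 8 for the lines at day 0. With RLE size factors it was 4 for the lines at day 0. Without the filter it was 1 for the lines at day 0. Leaving out each library in turn, for TAp63 day 1 it was 4 without TAp63 day 0 replicate 2 to 27 without DNp63 day 1 replicate 3. For TAp63 day 3 it was 32 without TAp63 day 0 replicate 2 to 151 without DNp63 day 1 replicate 3. For TAp63 day 6 it was 28 without TAp63 day 0 replicate 2 to 154 without DNp63 day 1 replicate 3. For DNp63 day 1 it was 3 without DNp63 day 0 replicate 3 to 1101 without DNp63 day 1 replicate 2. For DNp63 day 3 it was 144 without DNp63 day 0 replicate 2 to 1000 without DNp63 day 1 replicate 3. For DNp63 day 6 it was 175 without DNp63 day 0 replicate 2 to 784 without DNp63 day 1 replicate 3. For the line difference in change at day 1 it was 0 without TAp63 day 0 replicate 1 to 1 without DNp63 day 1 replicate 3. For the line difference in change at day 3 it was 2 without TAp63 day 0 replicate 3 to 20 without DNp63 day 1 replicate 3. For the line difference in change at day 6 it was 6 without TAp63 day 0 replicate 3 to 44 without DNp63 day 1 replicate 3. For the lines at day 0 it was 0 without TAp63 day 0 replicate 1 to 7 without DNp63 day 1 replicate 3. The cause was not tested.

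With the replicate block and without DNp63 day 1 replicate 3 together, the log2 value turned sign, with none called, to FOSB 0.032, JUN -0.19, JUND -0.24 for DNp63 day 1, and to FOSL1 0.15, JUN 0.18, JUND 0.23, EGR1 0.019, IER2 0.21, MYC 0.041 for the line difference in change at day 1, and to FOSB -0.077, FOSL1 0.027, JUN 0.28, JUND 0.085, IER2 0.20, MYC 0.065 for the lines at day 1. Without the filter, the log2 value turned sign, with none called, to IER2 0.026 for the line difference in change at day 1, and to IER2 0.012 for the lines at day 1. With the replicate block, the log2 value turned sign, with none called, to IER2 0.022 for the line difference in change at day 1, and to IER2 0.010 for the lines at day 1. Leaving out 1 library turned the sign of these log2 values, none of them called in those fits. Of these, MYC at DNp63 day 1 was called lower in the paired model. For TAp63 day 1, JUN ran from -0.26 to 0.15, JUNB ran from -0.14 to 0.053, JUND ran from -0.19 to 0.21, IER2 ran from -0.16 to 0.030. For TAp63 day 3, FOSB ran from -0.28 to 0.057, FOSL2 ran from -0.082 to 0.027, JUND ran from -0.033 to 0.39. For TAp63 day 6, FOS ran from -0.25 to 0.011, FOSL1 ran from -0.11 to 0.22, JUND ran from -0.074 to 0.28, IER2 ran from -0.097 to 0.070. For DNp63 day 1, FOS ran from -0.29 to 0.085, JUN ran from -0.050 to 0.82, JUND ran from -0.11 to 0.31, IER2 ran from -0.28 to 0.060, MYC ran from -0.34 to 0.044. For DNp63 day 3, FOS ran from -0.16 to 0.16, FOSL1 ran from -0.20 to 0.24, JUND ran from -0.27 to 0.017. For DNp63 day 6, FOSL2 ran from -0.020 to 0.14, JUNB ran from -0.041 to 0.086. For the line difference in change at day 1, FOSB ran from -0.24 to 0.19, FOSL1 ran from -1.31 to 0.12, JUN ran from -0.85 to 0.023, JUND ran from -0.34 to 0.11, IER2 ran from -0.12 to 0.22. For the line difference in change at day 3, FOSB ran from -0.0056 to 0.35, FOSL1 ran from -0.051 to 0.39, JUN ran from -0.023 to 0.49, EGR1 ran from -0.21 to 0.43. For the line difference in change at day 6, FOSB ran from -0.23 to 0.14, FOSL2 ran from -0.080 to 0.076, JUN ran from -0.33 to 0.099, JUNB ran from -0.11 to 0.017. For the lines at day 0, FOSL1 ran from -0.42 to 0.018, FOSL2 ran from -0.088 to 0.026, JUN ran from -0.069 to 0.27, JUNB ran from -0.034 to 0.092, JUND ran from -0.35 to 0.0033, IER2 ran from -0.069 to 0.064, MYC ran from -0.073 to 0.11. For the lines at day 1, FOSB ran from -0.021 to 0.42, JUN ran from -0.75 to 0.13, IER2 ran from -0.13 to 0.21, MYC ran from -0.37 to 0.012. For the lines at day 3, FOSL1 ran from -0.12 to 0.097, JUND ran from -0.057 to 0.31. For the lines at day 6, FOSL2 ran from -0.12 to 0.039, JUN ran from -0.22 to 0.17, JUNB ran from -0.052 to 0.026, JUND ran from -0.058 to 0.17.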
